A study of Mus musculus with 6 samples.

Results

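The transcriptome of wild-type (WT) fully-grown germinal vesicle (GV) oocytes of C57BL/6 mice was described from the 3 libraries whose labels give this genotype, of 6 oocyte libraries in the series. The titles of these samples carry the tag 6W, which the labels do not explain, and the age of the mice is not given in the labels. The other 3 libraries carry an Rtcb knock-out and were not used here. Each WT library was made from a pool of 10 oocytes taken 44 to 48 h after injection of PMSG, a gonadotropin that drives follicle growth. Polyadenylated RNA was converted to cDNA with Smart-seq2, a full-length method that starts from oligo-dT. Nothing in the labels says that the pools came from separate animals, so the spread between libraries may be technical, and differences between single oocytes cannot be seen. The values are FPKM (fragments per kilobase of transcript, scaled to the fragments mapped), normalized by the authors to ERCC spike-in RNA, for 23235 gene rows. FPKM is a level per transcript length, so levels of different genes can be set side by side. The WT values share 1 factor, so differences between WT libraries, such as those of their sums, carry no spike-in correction per library. The design gives no contrast among these 3 libraries, so values are given as mean ± SD (n = 3) or by library, with no test.

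A fully-grown oocyte rests in prophase of the first meiotic division with its nucleus, the germinal vesicle, intact. It has built up the mRNA that carries it through maturation, fertilization and the first cleavage, and its transcription becomes silent as it reaches full size. Much of this mRNA is stored with a short poly(A) tail and is translated or degraded on schedule, so in a library primed on poly(A) a level depends on tail length as well as on abundance. The oocyte builds the zona pellucida, signals to the granulosa cells around it through GDF9 and BMP15, and relies on pyruvate delivered by those cells.

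The oocyte identity of the pools was checked with 4 markers. Zp3, a zona pellucida glycoprotein of the mouse egg coat, was at 6162, 5813 and 5376 FPKM in WT 1, WT 2 and WT 3. Gdf9, the oocyte growth factor, was at 8387, 7365 and 5515 FPKM. Padi6, a protein of the cytoplasmic lattices, was at 4076, 3401 and 2698 FPKM, and Nlrp5, also called Mater, at 668, 519 and 395 FPKM. All 4 were highest in WT 1 and lowest in WT 3. By mean they held ranks 12, 7, 29 and 472 of the 23235 rows. Rtcb, the gene that gives the series its contrast, encodes the RNA ligase that joins tRNA exons; listed under its older symbol D10Wsu52e, it was at 136, 133 and 113 FPKM (127 ± 12.9), rank 1942.

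The summed FPKM of the libraries was 1267730, 1317985 and 1347014, lowest in WT 1 and highest in WT 3. Read depth is unknown, because FPKM do not keep it. In all 3 libraries 11401 rows (49.1%) had at least 1 FPKM, the level taken here as detected. The rows listed at 0 in all 3 numbered 5560 (23.9%), another 5145 were above 0 in a library but under 1 FPKM in all 3, and 1129 reached 1 FPKM in some libraries and not in others. Single libraries held 11989, 12022 and 11862 rows of at least 1 FPKM. At least 10 FPKM was reached in all 3 libraries by 7111 rows, 100 FPKM by 2166 and 1000 FPKM by 181. RefSeq gives a protein-coding biotype for 10699 of the detected rows and a long non-coding biotype for 473.

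**Figure D1:**
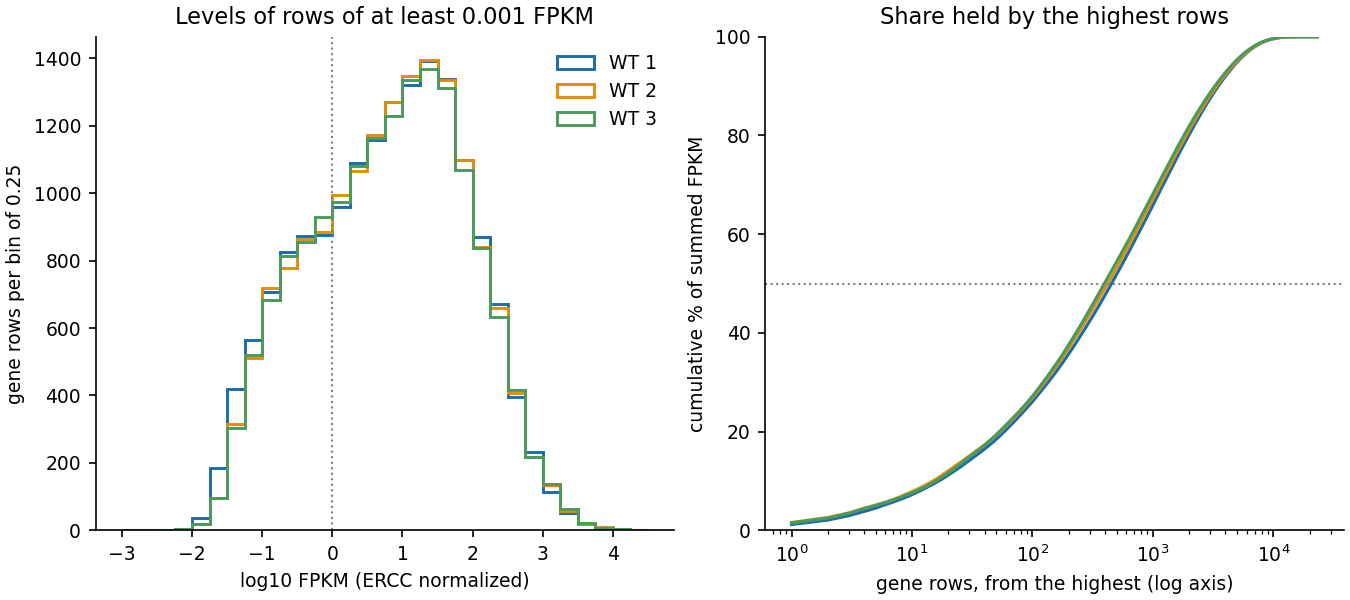
Left, number of gene rows by log10 FPKM in bins of 0.25 for each WT library, with the level of 1 FPKM dotted; right, cumulative percentage of summed FPKM against the number of rows counted from the highest (log axis), with 50% dotted. The 3 libraries give nearly the same curves, and 396 to 454 rows reach 50% of the sum.

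The message pool was concentrated in a small set of rows. Ranked by mean, the highest row held 1.42% of the summed FPKM, the 10 highest held 7.53% ± 0.328, the 100 highest 26.5% ± 0.603 and the 1000 highest 66.8% ± 1.11. By library the 10 highest held 7.19%, 7.84% and 7.55%, and the 1000 highest 65.7%, 66.9% and 67.9%. The share of the 1000 highest was thus lowest in WT 1 and highest in WT 3, while that of the 10 highest peaked in WT 2. It took 428 rows to reach 50% of the sum and 3415 rows to reach 90%. The 218 rows with a mean of at least 1000 FPKM held 37.9% of the sum, and the 2140 rows between 100 and 1000 FPKM held 46.0%, so the second class carried more of the pool than the first.

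The gene of highest mean other than a short RNA row was H1foo, the oocyte-specific linker histone, at 11545, 13241 and 12627 FPKM. Zbed3, a zinc-finger protein of the subcortical maternal complex, followed at 11292, 12419 and 13381 FPKM. Gm15698, now named Elobl and by name a relative of elongin B, was at 10637, 12044 and 13009 FPKM. The ranges of these 3 overlapped, although Zbed3 lay above Gm15698 within each library; H1foo lay above Zbed3 in 2 of the 3. Ldhb, the heart-type lactate dehydrogenase subunit, was at 8845, 8969 and 8168 FPKM, below each of those 3 genes in every library. Bcl2l10, an oocyte member of the BCL2 family of cell death regulators, was at 6551, 7396 and 8479 FPKM, highest in WT 3. Dppa3, which protects the maternal genome from loss of DNA methylation after fertilization, was at 6121, 7406 and 7346 FPKM, lowest in WT 1.

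Further down the 30 highest rows came genes of known oocyte function beside genes that many cells use. Sod1, a superoxide dismutase, averaged 5627 ± 275 FPKM and Uchl1, an abundant deubiquitinating enzyme of the egg, 5219 ± 271 FPKM. Spin1, a reader of histone methylation present in oocytes, averaged 5009 ± 182 FPKM with a coefficient of variation (CV, SD over mean) of 3.64%. Pttg1, or securin, which holds separase inactive until anaphase, averaged 4819 ± 237 FPKM. Btg4, the adaptor of the deadenylase that clears maternal mRNA during maturation, averaged 4282 ± 472 FPKM. Tcl1, a co-activator of AKT kinase, averaged 5343 ± 413 FPKM and Tmsb10, an actin-binding thymosin, 5120 ± 503 FPKM. Skp1a, a core subunit of SCF ubiquitin ligases, was at 4460, 5740 and 3679 FPKM and thus spread more widely, with a CV of 22.5%. Oosp1, an oocyte-secreted protein, was at 3836 and 3797 FPKM in WT 1 and WT 2 and at 5728 FPKM in WT 3.

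The remaining rows of the 30 were Tlcd2 (6048 ± 478 FPKM), E330017A01Rik, now Ftdc2 (5867 ± 365), Gm10094, now Sap18b (5282 ± 648), Gm813, now Ftdc1 (4991 ± 531), Mphosph6, a cofactor of the RNA exosome (4151 ± 475), and E330034G19Rik (3982 ± 598). Zar1, Rps29, Ooep and Fbxw24 are described with their groups, and 2 of the 30 were microRNA rows. Of the 30 steps between one rank and the next, 2 separated genes whose 3 values did not overlap: Mir762 above H1foo, and Gm15698 above Ldhb. The place of a gene within this set is therefore mostly within the spread between libraries. Of the 100 highest rows of each library, 82 were shared by all 3, and of the 10 highest, 8 were shared.

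**Figure D2:**
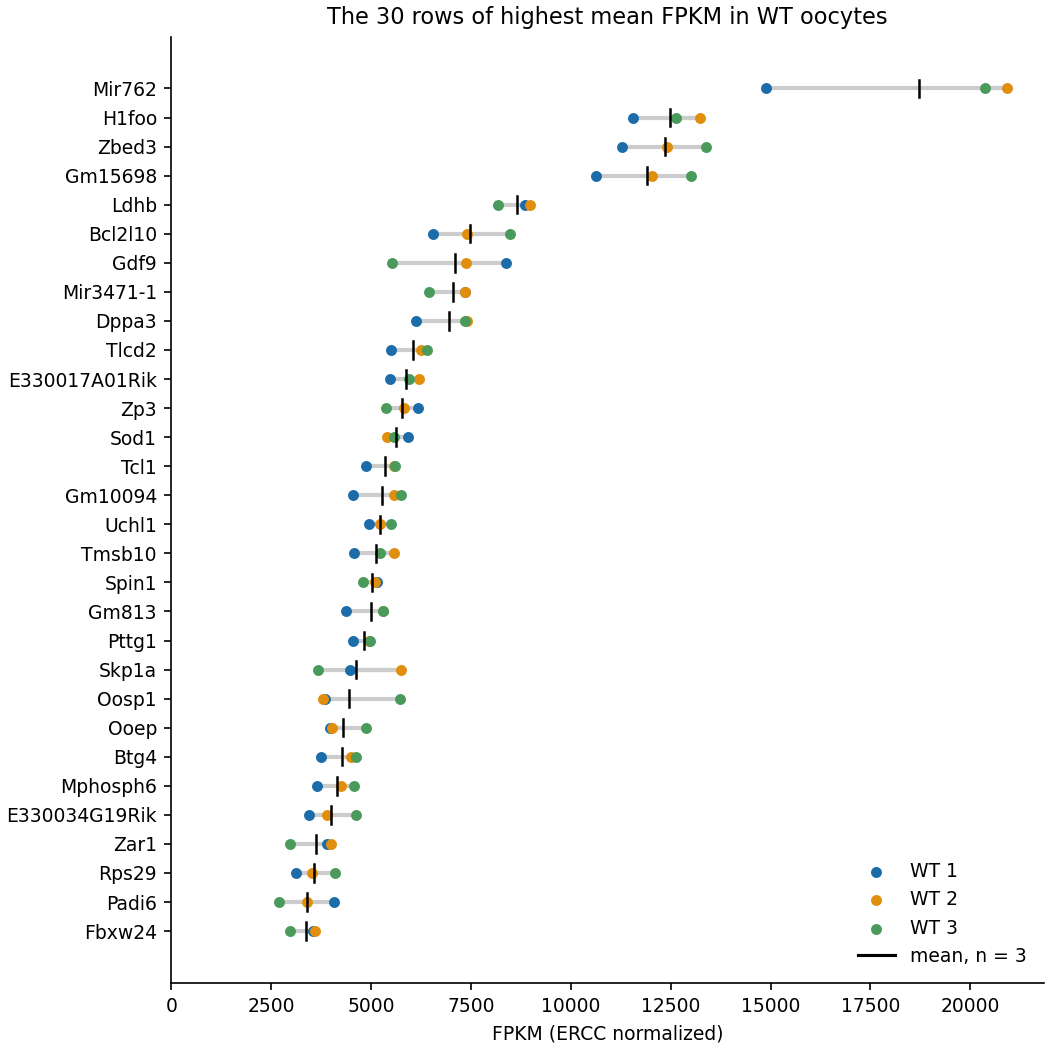
FPKM (linear axis) of the 30 rows of highest mean, one dot per WT library and a black bar at the mean of the 3. Mir762 lies apart from the rest with values from 14896 to 20928 FPKM, and from H1foo downwards most neighbouring rows overlap.

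The genes of the egg coat and egg surface were among the best represented. Of 11 measured, 11 were detected and 6 averaged at least 1000 FPKM, and together they held 1.54% ± 0.0759 of the sum. After Zp3 came Oosp1, Gm97 (now Oosp3, 2425 ± 582 FPKM) and Plac1l (now Oosp2, 2088 ± 141 FPKM), a set of related secreted proteins. Zp1, which cross-links zona filaments, averaged 1459 ± 226 FPKM, so that Zp3 stood 3.63, 4.07 and 4.30 times above it in the 3 libraries.

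The subcortical maternal complex, a protein assembly beneath the oocyte membrane that early embryos need, was detected at each of 7 measured genes and held 1.89% ± 0.0669 of the sum. Zbed3 was the largest part of this. Ooep averaged 4288 ± 505 FPKM, Padi6 3392 ± 689 and Tle6 3109 ± 601, with Nlrp5 lower at 527 ± 137. Across these genes the libraries did not move together: Zbed3 and Ooep were highest in WT 3, whereas Padi6, Tle6 and Nlrp5 were highest in WT 1. Khdc3, a further component, was not analysed here.

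Among growth factors, Gdf9 averaged 7089 ± 1456 FPKM and Bmp15, its partner in signalling to granulosa cells, 1874 ± 448 FPKM. Both were lowest in WT 3, and their ratio stayed between 3.61 and 3.94. Fgf8, an oocyte factor that acts on cumulus cells with BMP15, averaged 511 ± 40.1 FPKM, and Kit, the oocyte receptor of KIT ligand, 95.3 ± 11.3 FPKM. The list has 11 genes, of which 11 were detected, with a median level of 15.0 FPKM.

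Of 15 transcription factors and related regulators of oocyte growth, 14 were detected. Nobox, a homeobox factor that oocyte growth depends on, averaged 784 ± 142 FPKM, Sall4, a zinc-finger factor, 430 ± 27.4 FPKM and Lhx8, a LIM-homeobox factor, 319 ± 31.0 FPKM. Sohlh1, a bHLH factor of early follicles, was the gene of this list that was not detected in all 3 libraries.

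Chromatin genes of maternal type held 2.31% ± 0.0742 of the sum, of which H1foo and Dppa3 were the main part. Npm2, the nucleoplasmin that decondenses sperm chromatin, averaged 3054 ± 96.2 FPKM, with a CV of 3.15%. Zfp57, which guards methylation at imprinted loci, averaged 2422 ± 142 FPKM. Dnmt1, the maintenance methyltransferase, averaged 622 ± 46.1 FPKM and Uhrf1, its cofactor, 455 ± 71.2 FPKM. Of 24 genes measured, 23 were detected; the exception was Tet2 at 0.452 ± 0.0964 FPKM.

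Genes that store mRNA or control its translation were detected for 36 of 38. Beside Btg4, Zar1 averaged 3611 ± 567 FPKM and its relative Zar1l 1197 ± 110; both proteins bind stored maternal mRNA. Cpeb1, which binds the cytoplasmic polyadenylation element in 3′ ends of dormant mRNA, averaged 648 ± 88.7 FPKM. Cpeb2 was under 1 FPKM in all 3 libraries.

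Meiotic cell cycle genes were detected for 30 of 34. Ccnb1, cyclin B1, averaged 1432 ± 138 FPKM and Mos, the kinase that starts the MAPK cascade of metaphase II arrest, 1275 ± 136 FPKM. Aurkc, the germ-cell Aurora kinase, averaged 730 ± 63.2 FPKM and Bub1b, a spindle checkpoint kinase, 663 ± 70.9 FPKM. Genes of the receptor side of meiotic arrest that act in granulosa cells were low: Nppc and Npr2 were under 1 FPKM in all 3 libraries. Adcy3, an adenylyl cyclase on the same list, was also under 1 FPKM, at 0.607, 0.0627 and 0.355 FPKM. Ccna1, a male germ-cell cyclin, was listed at 0. Genes of meiotic prophase, whose early steps the oocyte passed before birth, were detected for 18 of 28, with a median of 8.67 FPKM over the list. Syce2, a central element protein of the synaptonemal complex, departed from this with 1535, 1778 and 1670 FPKM. Stra8, which starts meiosis, was under 1 FPKM in all 3 libraries, and Spo11, which makes the double-strand breaks, was listed at 0.

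Of 17 genes of egg activation and calcium handling, 12 were detected. Wee2, the oocyte kinase that inhibits CDK1, averaged 569 ± 46.6 FPKM, Camk2g, the calcium-dependent kinase isoform of the egg, 204 ± 15.2 FPKM, Atp2a2, the calcium pump of the endoplasmic reticulum, 154 ± 43.4 FPKM and Orai1, a calcium channel of the plasma membrane, 101 ± 10.3 FPKM. Plcz1, the phospholipase that sperm deliver, was listed at 0.

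Several oocyte families were present as runs of neighbouring genes. Rows with a mean of at least 500 FPKM were taken, and with the gene order of the GRCm38.p6 annotation those within 200 kb of each other formed 6 runs of 4 or more genes. The level of the members is thus set by this rule, and rows below it lay between them. The longest was on chromosome 9, where 10 of the 12 rows between the ends passed, all of them Fbxw genes, which encode F-box proteins with WD repeats, held 1.07% of the sum: Fbxw21, Fbxw20, Fbxw14, Fbxw28, Fbxw16, Fbxw19, Fbxw15, Fbxw24, Fbxw18 and Fbxw26. Fbxw24 was the highest of them at 3542, 3599 and 2966 FPKM, followed by Fbxw15 at 2378, 2458 and 2301 FPKM and Fbxw16 at 1614, 1902 and 1392 FPKM. Fbxw21 was at 1490, 1481 and 1415 FPKM, and the lowest, Fbxw26, at 556, 553 and 482 FPKM. In each of these 5 genes WT 3 gave the lowest value. Other Fbxw genes lay below the rule's level, such as Fbxw22 (475 FPKM), Fbxw13 (338 FPKM) and Fbxw17 (41.5 FPKM). The copies are alike, so reads may have been divided among them and single levels are uncertain. A run of 6 on chromosome 12 held Tcl1, 4 Tcl1b genes and Glrx5 (0.783% of the sum) and one of 5 on chromosome 9 Omt2a, Omt2b, Dppa5a, Ooep and Eef1a1 (0.924%). Oas1e, Oas1c, Oas1h and Oas1d on chromosome 5 (0.604%), Rps29 with 3 neighbours on chromosome 12 (0.469%), and Obox2, Obox1 and Obox5 with Sepw1 on chromosome 7 (0.409%) made up the others.

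Promoters of the Fbxw run are shown because these neighbours share much of their upstream sequence, next to that of Zp3 as an unrelated oocyte gene. The stretches run from 200 to 51 bases before the annotated start, 5′ to 3′ on the gene's strand, from RefSeq (GRCm38.p6, first listed start of each gene). Capitals mark matches to the E-box CANNTG, the type of element that bHLH factors such as FIGLA recognise. The last match of Zp3, CAGGTG from 55 bases before the start, is cut short by the end of the stretch.
Fbxw24, chr9:109626110-109626259, minus strand: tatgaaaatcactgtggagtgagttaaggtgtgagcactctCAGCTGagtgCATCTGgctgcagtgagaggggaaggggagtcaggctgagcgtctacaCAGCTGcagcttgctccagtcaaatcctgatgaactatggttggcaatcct
Fbxw15, chr9:109568313-109568462, minus strand: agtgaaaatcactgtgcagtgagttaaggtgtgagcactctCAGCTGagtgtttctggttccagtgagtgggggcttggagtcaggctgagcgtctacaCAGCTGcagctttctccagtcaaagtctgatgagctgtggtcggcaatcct
Fbxw16, chr9:109449191-109449340, minus strand: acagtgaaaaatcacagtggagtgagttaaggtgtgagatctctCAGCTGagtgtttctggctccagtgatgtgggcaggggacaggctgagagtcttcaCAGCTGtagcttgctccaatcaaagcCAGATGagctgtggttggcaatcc
Fbxw21, chr9:109162073-109162222, minus strand: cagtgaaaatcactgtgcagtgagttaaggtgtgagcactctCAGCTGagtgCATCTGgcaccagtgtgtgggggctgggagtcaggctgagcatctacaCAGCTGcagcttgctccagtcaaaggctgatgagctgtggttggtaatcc
Fbxw20, chr9:109234805-109234954, minus strand: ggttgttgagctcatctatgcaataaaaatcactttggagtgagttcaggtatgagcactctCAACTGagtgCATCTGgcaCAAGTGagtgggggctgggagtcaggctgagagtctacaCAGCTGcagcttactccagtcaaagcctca
Zp3, chr5:135979905-135980054, plus strand: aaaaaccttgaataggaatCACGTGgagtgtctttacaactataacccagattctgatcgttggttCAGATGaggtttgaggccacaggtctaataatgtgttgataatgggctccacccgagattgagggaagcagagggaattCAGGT
Over the RefSeq window of 250 bases before to 50 after the start, the 10 Fbxw promoters were 74.7% to 97.3% identical to each other (median 88.0% over 45 pairs, global alignment), against 47.7% to 56.3% for the 20 pairs of an Fbxw promoter with that of Zp3 or H1foo. All 10 held CAGCTG, and 9 held it at least 2 times, with the 2 copies 56 to 58 bases apart; Fbxw20 held it once. This motif was singled out after the sequences were seen. CAGCTG, which is its own reverse complement, occurred in 16.1% of the 27025 promoters in the RefSeq table and at least 2 times in 1.75%. The general form CANNTG is common: 72.1% of all promoters held it, and 68.9% of the 17527 that matched a row here. It was in 68.0% of those of the 100 highest rows with a promoter, 64.5% of those of detected rows and 76.9% of those of rows at 0. The homeobox motif TAATTG, read on both strands, was in 10.0%, 5.34% and 11.1% of the same 3 sets. It was in 8.15% of all promoters and 6.97% of the matched ones. TATAAA between 40 and 20 bases before the start was in 5%, 1.37% and 5.42% of the 3 sets. It was in 2.22% of all promoters and 2.78% of the matched ones. A match is a description of the letters only.

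Members of the same family differed widely in level. The Fbxw family was detected at 21 of 21 rows. In the Oas family, named for the antiviral 2-5A synthetases, 9 of 12 rows were detected: Oas1e averaged 2524 ± 328 FPKM, Oas1d 2302 ± 200, Oas1h 1581 ± 73.5 and Oas1c 1487 ± 160, whereas Oas1a, Oasl2 and Oas2 were under 1 FPKM in all 3 libraries. Of 19 Nlrp rows, 12 were detected; Nlrp14 was at 2853, 2200 and 1902 FPKM, and Nlrp3, an inflammasome sensor, was listed at 0. Obox2 averaged 1613 ± 179 FPKM, Obox5 1531 ± 183 and Obox1 935 ± 90.5, while Obox6 was under 1 FPKM. Of 15 Oogenesin and Prame-like rows 7 were detected (46.7%, near the 49.1% of all rows), led by Oog3 at 1801 ± 64.4 FPKM, and 6 were listed at 0.

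Most genes of general cell machinery were detected. Of 87 cytosolic ribosomal protein rows, 86 were detected, and they held 4.77% ± 0.587 of the sum; Rps29 averaged 3571 ± 489 FPKM, Rpl41 2901 ± 507 and Rpl35 2818 ± 397. Mitochondrial ribosomal proteins were detected at 76 of 76 rows and subunits of oxidative phosphorylation at 90 of 93, the latter with 3.40% ± 0.282 of the sum and with Atp5e (2521 ± 443 FPKM) and Atp5k (2314 ± 409 FPKM) highest. Spliceosome proteins were detected at 39 of 39 rows, led by Snrpg at 1613 ± 213 FPKM, and proteasome subunits at 37 of 40, led by Psma7 at 2479 ± 567 FPKM; among those not detected were Psmb8 and Psmb9, subunits of the immunoproteasome, and Psma8, the testis subunit. Translation elongation factors were detected at 6 of 7 rows, led by Eef1a1 at 773 ± 98.9 FPKM, and tubulins and actins at 24 of 32, led by Tubb4b at 2774 ± 205 FPKM. Among all rows, 49.1% were detected.

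Genes of pyruvate use were detected more completely than those of glycolysis, by count. Of 29 glycolysis rows, 15 were detected, and the rows other than Ldhb summed to 1307, 1203 and 1122 FPKM, with Pkm2 at 447 ± 80.4 FPKM, Tpi1 at 205 ± 16.7 and Aldoa at 196 ± 3.25. Of 28 genes of pyruvate use and the TCA cycle, 27 were detected, with a list median of 82.9 FPKM against 4.29 FPKM for glycolysis. Other groups were smaller. The piRNA pathway was detected at 17 of 20 genes, led by Gtsf1 at 1632 ± 124 FPKM, and small RNA silencing at 11 of 13, with Eif2c1 (Ago1) and Eif2c4 (Ago4) under 1 FPKM. Replication-dependent histones, whose mRNA mostly lacks a poly(A) tail, were detected at 22 of 68 rows, with Hist1h2bc at 405 ± 28.3 FPKM highest. Of 20 connexins, the gap junction proteins, 5 were detected; Gja4, the oocyte connexin 37, was at 1346, 1211 and 1247 FPKM. Among zinc transporters and metallothioneins 16 of 28 were detected, led by Slc30a3 at 640 ± 37.2 FPKM. Of 39 imprinted genes 17 were detected, with Gnas at 318 ± 20.9 FPKM and Mest at 189 ± 8.22 FPKM, and H19 under 1 FPKM. Among all rows 49.1% were detected, so the glycolysis (51.7%), zinc (57.1%) and imprinted (43.6%) counts lie near the share of all rows. Of 25 genes known from zygotic genome activation or the blastocyst, 7 were detected; Klf17, at 395 ± 26.9 FPKM, stood above the rest of this list. In the tRNA ligase and endonuclease set 10 of 11 genes were detected; the RTCB partner Rtraf, listed as 2700060E02Rik, averaged 297 ± 20.2 FPKM, Zbtb8os, the archease-like cofactor, 46.7 ± 11.6 and Ddx1, the helicase, 34.1 ± 5.86 FPKM.

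Genes that are related by sequence or work as partners were set side by side in 35 pairs. In 30 pairs the 3 values of one gene lay above the 3 of the other, and in 17 the ratio of means was at least 10. Ldhb was 1685, 2577 and 1971 times above Ldha, the muscle-type subunit, which was at 5.25, 3.48 and 4.14 FPKM. H1foo was 177 to 236 times above H1f0, the linker histone of resting cells, and Oas1d 3739 to 4391 times above Oas1a. Gja4 was 628 to 1425 times above Gja1, the connexin of granulosa cells, which was at 1.77, 1.93 and 0.875 FPKM. Tet3, the maternal methylcytosine dioxygenase, averaged 187 ± 24.5 FPKM, 130 to 154 times above Tet1 and 335 to 594 times above Tet2. Wee2 was 51.8 to 57.9 times above Wee1, Btg4 204 to 267 times above Btg2, and Pabpc1l, the embryonic poly(A)-binding protein, 27.6 to 49.9 times above Pabpc1. Camk2g and Slc2a1 also stood far above Camk2a and Slc2a3, whose levels near 0.1 FPKM make the ratios unsteady.

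In other pairs the gene used by most cells was the higher one. Tbp, the general TATA-binding protein, averaged 151 ± 3.99 FPKM and was 8.04 to 10.4 times above Tbpl2, its oocyte paralog (17.0 ± 2.22 FPKM). Ybx1 was 1.75 to 2.06 times above Ybx2, the germ-cell mRNA-packaging protein. Eif4e, at 388 ± 17.0 FPKM, was above the oocyte form Eif4e1b in each library, but Eif4e1b itself was at 98.4, 193 and 316 FPKM, so the ratio ran from 3.99 in WT 1 to 1.17 in WT 3. Smarca2 was 10.3 to 12.3 times above Smarca4, both ATPases of the BAF remodelling complex, and Hsf1 8.36 to 28.7 times above Hsf2. The ranges of 5 pairs overlapped: Pde3a with Pde3b, Cnot7 with Cnot8, Actb with Actg1, Gsk3a with Gsk3b, and Lsm14a with Lsm14b. The remaining comparisons are shown in the plot of ratios, and 2 pairs had a gene listed at 0 in all 3 libraries (Pgk2 beside Pgk1 at 37.6 ± 1.44 FPKM, and Rec8 beside Rad21 at 38.5 ± 8.03 FPKM).

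**Figure D3:**
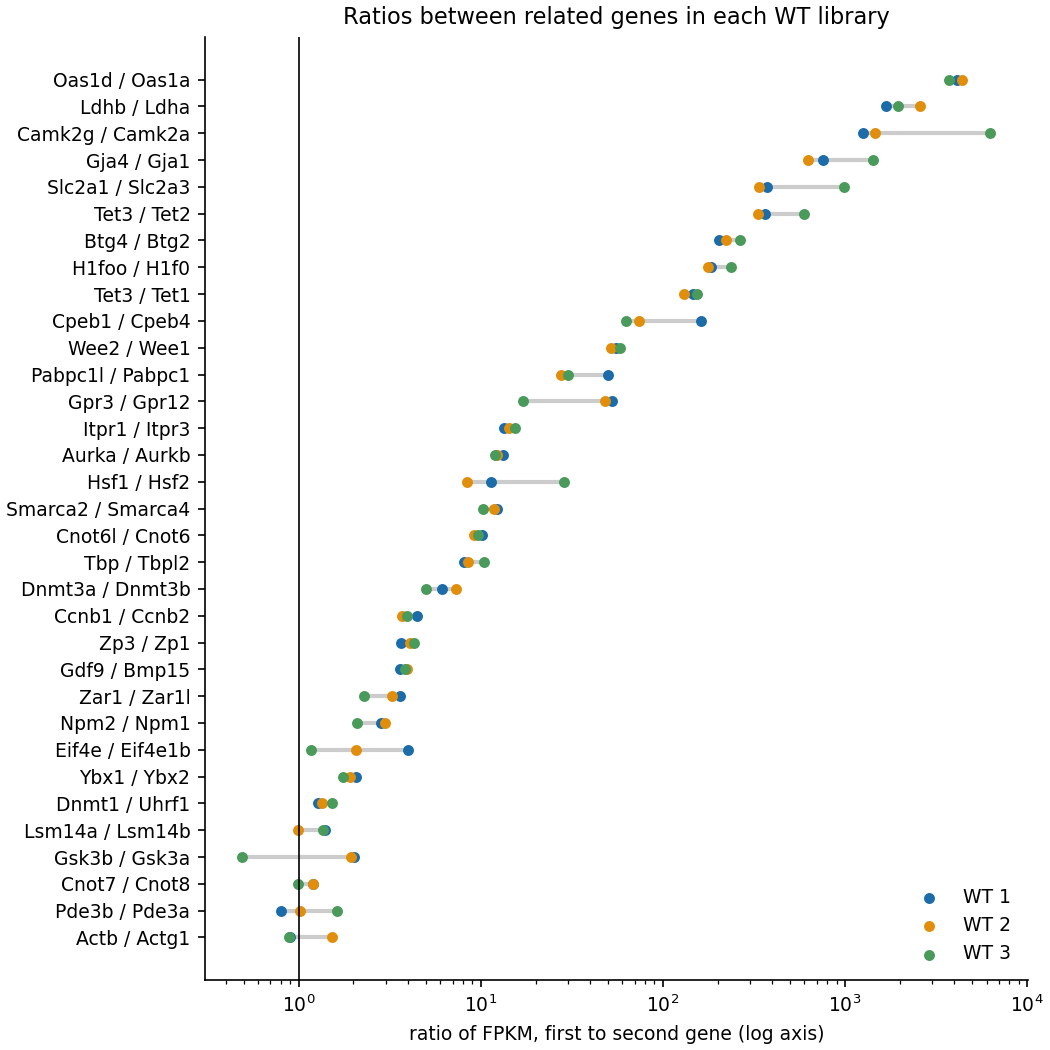
Ratio of FPKM of the first to the second gene named (log axis) for 33 pairs, one dot per WT library, with 1 marked by a vertical line. Single dots run from 0.490 for Gsk3b and Gsk3a in WT 3 to 6296 for Camk2g and Camk2a in WT 3, where Camk2a is near 0.1 FPKM; Oas1d and Oas1a have the highest ratio of means (4078).

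Families used by other organs were mostly silent. Olfactory receptors, the odour receptors of the nose, were listed at 0 in all 3 libraries for 977 of 1118 rows, and 16 were detected; the highest, Olfr976, was at 116, 93.8 and 101 FPKM. Vomeronasal receptors, which sense pheromones, were at 0 for 252 of 326 rows, and taste and trace amine receptors for 42 of 53. Keratin-associated proteins (46 of 52 at 0), late cornified envelope and Sprr proteins (30 of 32), major urinary and odorant-binding proteins (28 of 36), alpha and beta interferons (13 of 16) and crystallins (8 of 16) had no row detected in all 3 libraries. Of 39 Hox genes, which pattern the body axis, 1 was detected: Hoxa7, at 31.8, 29.0 and 36.4 FPKM. Of 59 clustered protocadherins, which label neurons, 1 was detected although 14 were at 0, since most of the others lay between these levels. Over all rows 23.9% were at 0 and 49.1% were detected.

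Other families were used in part, to be read beside the 49.1% of all rows that were detected. Fox genes were detected at 11 of 45 rows, with Foxr1 at 132 ± 12.5 FPKM and Foxj3 at 129 ± 10.3 FPKM highest, and Sox genes at 2 of 19, Sox15 (47.8 ± 9.94 FPKM) and Sox8 (32.3 ± 8.10 FPKM). Of 61 defensin rows, 6 were detected, and 3 of them averaged above 100 FPKM: Defb50 at 109, 143 and 171 FPKM, Defb8 at 127 ± 20.4 FPKM and Defb41 at 116 ± 35.8 FPKM. Of 52 keratins, 12 were detected, led by Krt12 at 92.8 ± 11.5 FPKM. Of 35 interleukins, 9 were detected, led by Il17f at 117, 136 and 77.1 FPKM. By contrast 247 of 367 Zfp zinc-finger genes were detected, with Zfp57 and Zfp296 (734 ± 55.4 FPKM) highest, and 45 of 52 Usp deubiquitinases, with Usp46 at 353 ± 42.0 FPKM.

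**Figure D4:**
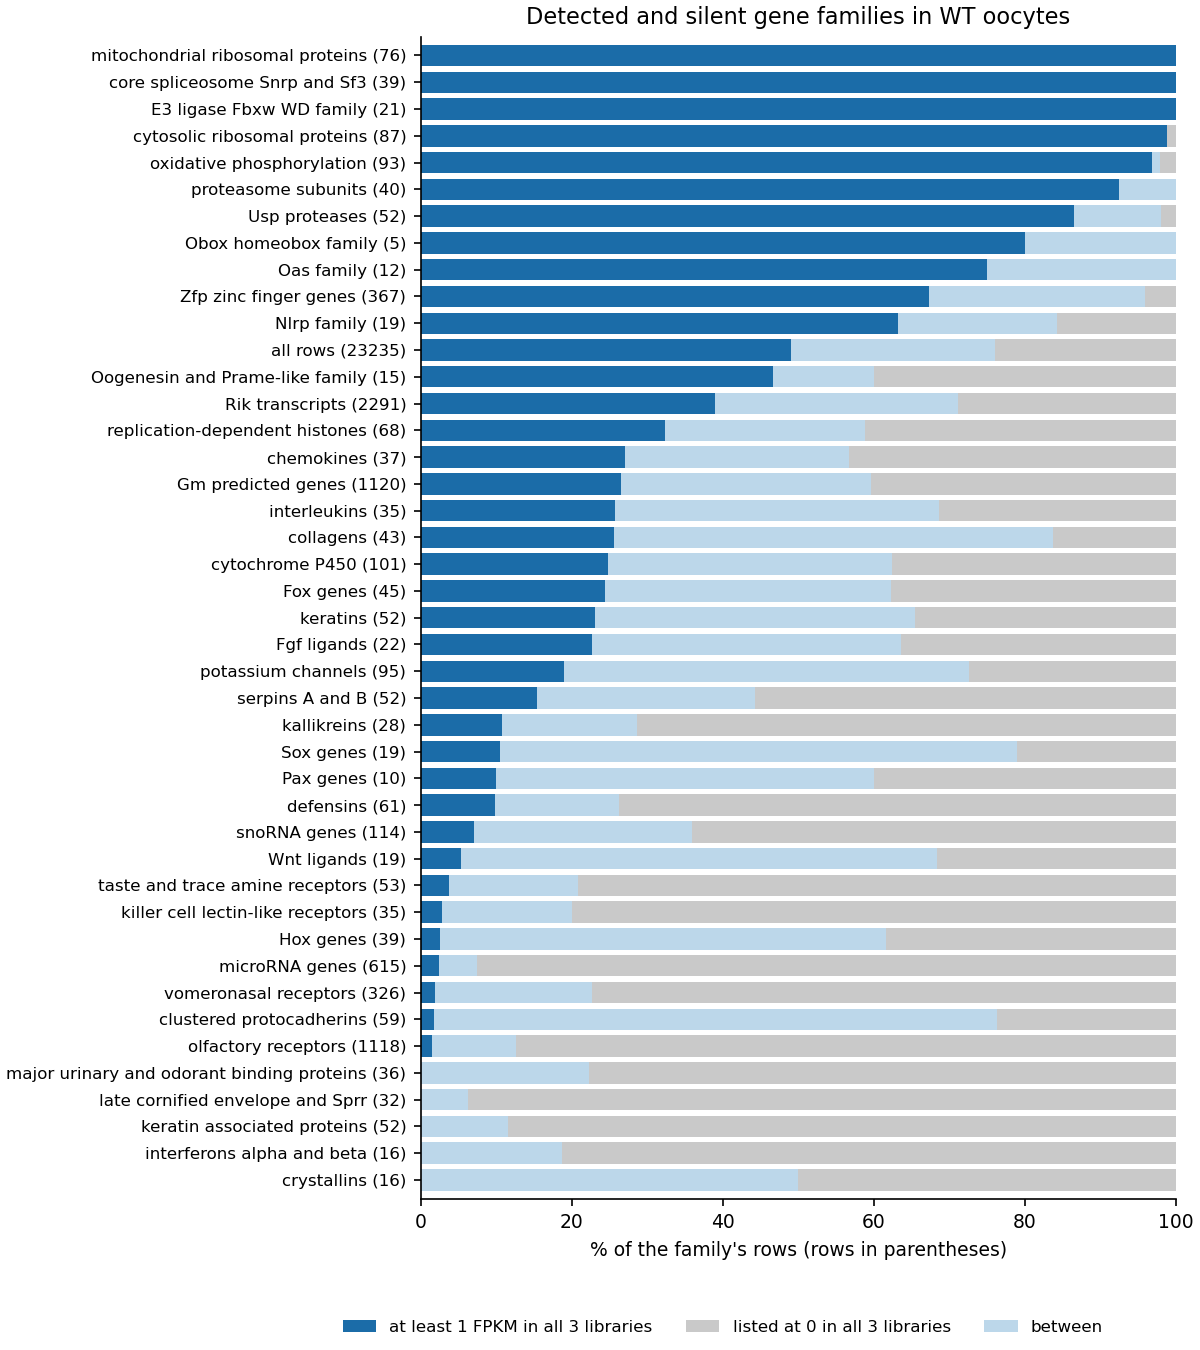
Percentage of the rows of each gene family at 1 FPKM or more in all 3 WT libraries (dark), listed at 0 in all 3 (grey) and between (light), with the number of rows in parentheses. Ribosomal, respiratory, spliceosome and proteasome genes reach 92.5% to 100% detected and sensory, skin and immune families lie at 0% to 27.0%, with all rows at 49.1%.

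Markers of other cells of the ovary were low, with a few exceptions that were high in all 3 libraries. Of 30 granulosa and cumulus markers, 8 were detected, and their summed level was 640 to 677 FPKM, of which Serpine2, a protease inhibitor of cumulus cells, gave 494, 483 and 515 FPKM. Esr2, estrogen receptor beta, averaged 92.1 ± 6.81 FPKM and Cyp19a1, aromatase, 37.5 ± 2.17 FPKM. Fshr, Amh and Foxl2 were among 19 markers of this list that were under 1 FPKM in all 3 libraries. Of 15 theca and stroma markers, 1 was detected (Myh11, 19.3 ± 0.653 FPKM), and their sum was 21 to 23.8 FPKM. Of 18 blood and immune markers, 2 were detected, with a sum of 79.7 to 113 FPKM: C1qb, a complement subunit, at 107, 106 and 75.2 FPKM, and Cd68, a macrophage marker, at a few FPKM. Ptprc, the pan-leukocyte marker, was under 1 FPKM and the measured hemoglobin genes were at 0. Of 12 markers of endothelium and surface epithelium, 4 were detected, with a sum of 43.0 to 61.1 FPKM, of which Pecam1 gave 46.7, 38.1 and 30.2 FPKM and Cdh5 was at 0. Of 20 sperm and spermatid markers, 5 were detected, with a sum of 166 to 196 FPKM, led by Odf2 at 97.5 ± 9.61 FPKM and Prm2, protamine 2, at 53.5 ± 5.96 FPKM. For comparison, 49.1% of all rows were detected. The part of other cells in these values was not tested.

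By chromosome, 361 of 937 rows on the X chromosome were detected (38.5%), with a median of 13.7 FPKM over the detected rows. The autosomes ranged from 41.8% detected on chromosome 7 to 60.4% on chromosome 8, and their 10915 detected rows had a median of 21.8 FPKM. None of the 16 rows on the Y chromosome was detected, and Xist, the RNA of X inactivation, was under 1 FPKM in all 3 libraries. Chromosome 11 held the largest part of the summed FPKM, 9.33%, and 23 rows with a mean of at least 1000 FPKM.

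High rows were shorter than other detected rows. The 100 highest rows other than short RNAs had a median transcript length of 1530 bases and 4 exons, and 25% were under 1000 bases, whereas all 11223 detected rows with a length had a median of 3166 bases and 8 exons, with 6.22% under 1000 bases. The 500 lowest of the detected rows had a median of 3798 bases. Lengths are those of the longest GENCODE vM21 transcript, found for 98.6% of detected rows other than short RNAs. FPKM divide by transcript length, and the part of that division in this pattern was not tested.

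Some of the highest rows belonged to short non-coding RNAs. Of 736 rows for microRNAs, snoRNAs and similar short RNAs, 644 were at 0 and 24 were detected in all 3 libraries, yet together they held 3.78% ± 0.256 of the summed FPKM. Mir762 had the highest level in the table, at 14896, 20928 and 20362 FPKM. Mir3471-1 was at 7344, 7343 and 6453 FPKM and Mir703 at 2608, 2489 and 4518 FPKM. Such a row spans the hairpin precursor. A library of polyadenylated RNA does not measure the mature microRNA, and FPKM of features this short divide by a very small length and are unstable. The hairpins of these 3 rows, from RefSeq (GRCm38.p6), are shown because they are the whole feature behind the values, with the mature microRNA in capitals.
Mir762 hairpin, chr7:127708487-127708562, plus strand: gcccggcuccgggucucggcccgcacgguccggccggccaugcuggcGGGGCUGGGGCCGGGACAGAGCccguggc
Mir3471-1 hairpin, chr4:10845500-10845630, minus strand: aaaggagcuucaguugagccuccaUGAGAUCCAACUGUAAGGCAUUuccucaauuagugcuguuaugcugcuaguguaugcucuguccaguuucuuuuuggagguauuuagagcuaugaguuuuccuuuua
Mir703 hairpin, chr5:98475556-98475664, minus strand: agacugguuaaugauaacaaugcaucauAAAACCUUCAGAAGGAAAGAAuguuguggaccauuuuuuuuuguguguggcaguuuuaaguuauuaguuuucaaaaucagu
The mature sequences, with the seed (bases 2 to 8) in capitals, have no seed in common.
miR-762: gGGGCUGGggccgggacagagc
miR-3471: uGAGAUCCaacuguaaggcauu
miR-703: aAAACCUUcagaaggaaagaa
The Mir762 hairpin is 76 bases long with 82.9% G and C, the Mir3471-1 hairpin 131 bases with 40.5%, and the Mir703 hairpin 109 bases with 31.2%.

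Many short RNA rows lie inside other genes. Of the 85 with a mean of at least 1 FPKM, 51 overlap an exon of another gene, 23 lie in an intron and 9 between genes, while 2 were not matched. Mir762 overlaps an exon of Bcl7c on the opposite strand, and Bcl7c averaged 305 ± 44.4 FPKM. Mir22 overlaps an exon of Tlcd2, which is among the 10 highest rows, and Snora47 (2374, 1566 and 3122 FPKM) lies in an intron of Zbed3. Mir3471-1 lies between genes. Without strand, which the sources used here do not give, reads of such a row and of the gene around it cannot be told apart. The spread was also wide: of these 85 rows, 39 were above 0 in a single library, 18 in 2 and 28 in all 3. Mir24-1, for example, was at 1758, 1703 and 584 FPKM, and Snord42b at 3129 FPKM in WT 1 and at 0 in the others. Among rows with a mean of 1 to 10 FPKM as a whole, 99.5% were above 0 in all 3 libraries.

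Replicate spread was small for most detected rows. The median CV was 12.5%, with quartiles of 7.58% and 19.5%, and 76.1% of detected rows were under 20%, while 102 rows were over 50%. By mean level the median CV was 49.1% between 0.1 and 1 FPKM, 19.3% between 1 and 10, 11.6% between 10 and 100, 9.02% between 100 and 1000 and 10.4% from 1000 FPKM upwards. Spearman correlations between libraries, across genes and as a description, were 0.984 to 0.991 over the detected rows and 0.970 to 0.974 over the 17675 rows above 0 in any library. WT 2 was least often the library farthest from the mean of log2(FPKM + 1), in 20.4% of detected rows, against 36.4% for WT 1 and 43.1% for WT 3.

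Among genes that averaged 10 FPKM or more, Myo5a, a motor protein, had the smallest CV (10.1, 10.1 and 10.1 FPKM, CV 0.193%). Next came Srgn, a proteoglycan core protein (175, 174 and 174 FPKM), Fbxw8, Ddx55 and Tm2d1 (540, 541 and 538 FPKM). These are the lowest of many CVs taken from 3 values each, so they do not show that a gene is stable. The most variable were Tceal8 at 9.91, 0.760 and 33.9 FPKM, Apoo-ps at 70.2, 65.2 and 0.0281 FPKM, Rps27 at 462, 2.62 and 404 FPKM, Il1f9 at 43.0, 18.6 and 9.63 FPKM and Sdcbp2 at 28.5, 22.8 and 7.37 FPKM. Rps27 was thus low in WT 2 alone, whereas Rps29 stood at 3110, 3519 and 4084 FPKM. Rn45s, the ribosomal RNA precursor, named after its values were seen, was at 1463, 1520 and 3058 FPKM, highest in WT 3.

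Part of the spread was shared by most members of some gene groups. Of the 86 detected cytosolic ribosomal protein rows, 76 were highest in WT 3, and the median difference of WT 3 minus WT 1 was 0.39 in log2(FPKM + 1), against -0.04 over all detected rows. The difference was 0.29 for oxidative phosphorylation (63 of 90 highest in WT 3) and 0.22 for mitochondrial ribosomal proteins (52 of 76). On the other side it was -0.42 for the Nlrp family (11 of 12 highest in WT 1) and -0.57 for the subcortical maternal complex (5 of 7). Zbed3 and Ooep, the highest members of that complex, went the other way and were highest in WT 3. Nlrp5, Nlrp2 and Nlrp4f are in both lists, so these lists are not independent of each other. Over all detected rows, 3885 were highest in WT 3 and 4365 in WT 1. The lists were picked out after their values were seen.

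The same difference varied with transcript length. Among rows with a mean of at least 10 FPKM its median was 0.29 for transcripts under 1000 bases, 0.06 from 1000 to 2000, -0.12 from 2000 to 4000, -0.04 from 4000 to 8000 and 0.10 above 8000. Within the transcripts under 1000 bases it was 0.43 for 38 ribosomal protein rows and 0.27 for 403 rows in neither that list nor oxidative phosphorylation, and from 1000 to 2000 bases it was 0.32 for 32 ribosomal protein rows and 0.06 for 1451 such others. From 2000 to 4000 bases it was 0.35 for 12 ribosomal protein rows and -0.12 for 3092 others, and the 2 ribosomal protein rows of 4000 to 8000 bases had a median of 0.50. Ribosomal protein rows were thus above the other rows in each of these classes. The classes go by the longest annotated transcript, which may not be the one expressed. Rows of 1 class therefore need not be of like length. Across all 7351 rows the rank correlation of the difference with length was -0.13, as a description. What sets WT 1 and WT 3 apart was not tested.

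**Figure D5:**
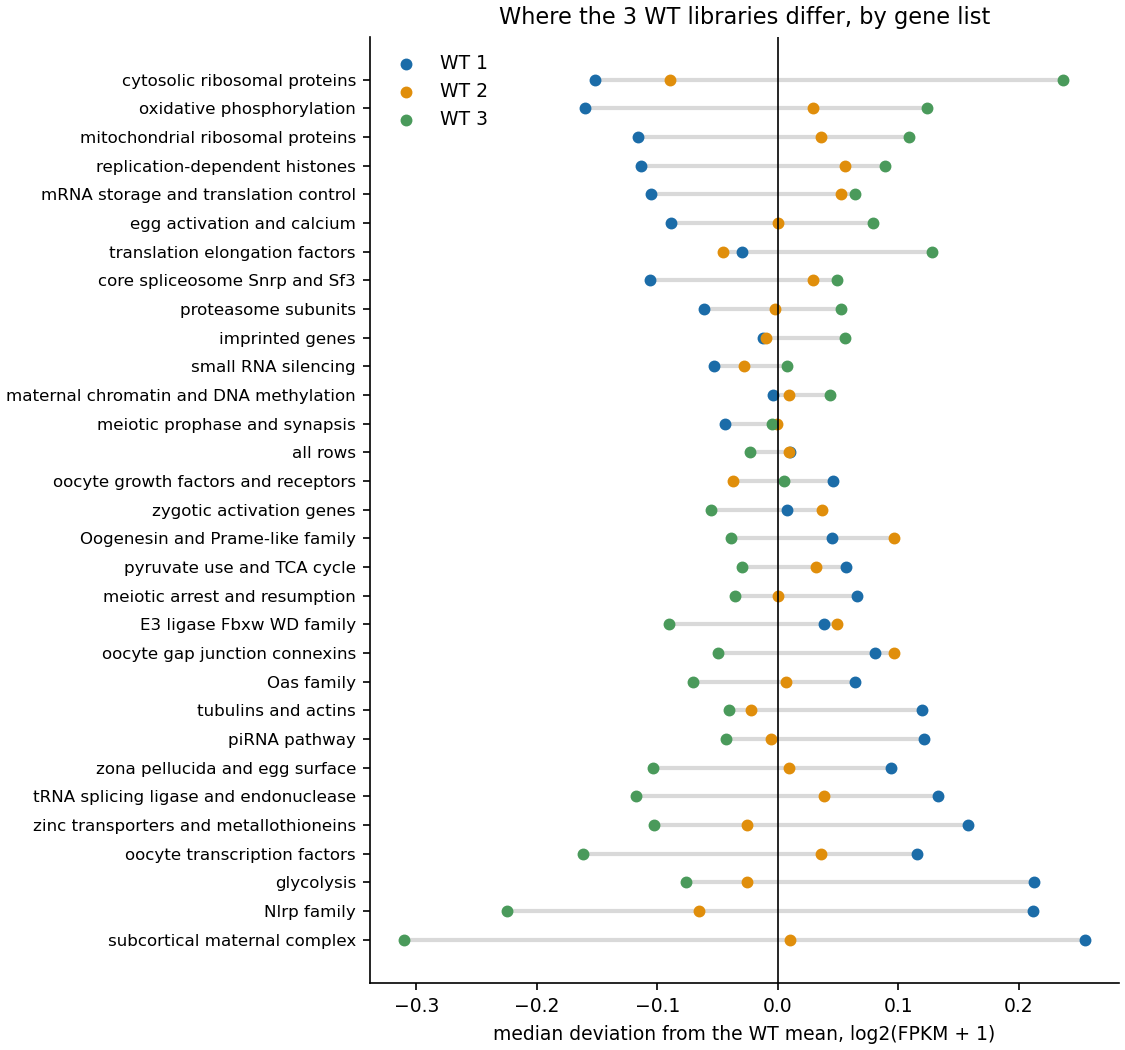
Median deviation from the mean of the 3 WT libraries in log2(FPKM + 1), over the detected members of each gene list with at least 5 of them, one dot per library. Cytosolic ribosomal proteins lie at -0.15, -0.09 and 0.24 in WT 1, WT 2 and WT 3 and the subcortical maternal complex at 0.25, 0.01 and -0.31, while all rows lie within 0.03 of 0.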

How the data were processed

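Per the file headers, the deposited values are FPKM that the authors normalized by ERCC, with 1 row per gene symbol; the 3 WT columns were read and no other. The submitters' processing notes name TopHat2 2.1.1, Cufflinks 2.2.1 and build mm9; no source here names the annotation. Divided by 2, all WT values of at least 1 FPKM have 6 significant digits, against 73.3% to 73.8% undivided, so the WT columns share 1 factor. Libraries were grouped by the genotype in the labels.

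Rows were ranked by mean; detected means at least 1 FPKM in each library. No test was run, since the libraries form 1 group, and with depth unknown no counting error is given. The ranking, share and CV steps were tested on simulated data. The members and the 69 gene lists were chosen with earlier results of these data known; 5 symbols caught by letters alone were dropped. Named genes are the 4 markers and Rtcb, the 30 highest rows, up to 4 highest or any undetected members per list, the listed pairs and the 5 largest and smallest CV. Genes of the chromosomal runs, further list members and short RNA rows were chosen for mention with their values in view. As alternatives, results were recomputed with other thresholds, equal sums, no short RNA rows, no low rows and each library left out.

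RefSeq GRCm38.p6 matched 22968 rows (98.9%) and gave names, gene order and sequences; GENCODE vM21 gave lengths. Both differ from mm9, so coordinates stand with printed sequences only. Promoters were aligned globally with Biopython 1.88 (match 1, mismatch -1, gap opening -3, extension -1). Python 3.11.15, numpy 2.4.6, pandas 2.3.3, scipy 1.17.1 and matplotlib 3.10.9 were used.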

Additional observations from a re-analysis of the deposited data

How the results depend on the processing

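No paired analysis was possible because only the WT group was described and no test was made. Of 54 values recomputed under other settings, 47 stayed within 1 SD of the value reported or, for counts, within 1.5 times of it. Part of this tally was fixed in advance, since equal library sums can hardly change a share within a library. The bound for counts is also wide: 14107 and 8569 detected rows both fell within it, against 11401 reported. The other 7 values moved further. The lowest Spearman correlation (0.970) was 0.984 over rows of at least 1 FPKM in every library, 0.984 as a Pearson correlation of log2(FPKM + 1) and 0.979 without short RNA rows. Without short RNA rows the share of the 10 highest rows was 6.71% and that of the 100 highest 25.5%. Without the 5 microRNA and snoRNA rows of highest mean, an alternative chosen after seeing the data, the share of the 10 highest was 6.63%.

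Leaving out 1 library at a time gave 11528 to 11664 detected rows, 5986 to 6149 rows at 0, shares of 7.37% to 7.70%, 26.3% to 26.9% and 66.3% to 67.5% for the 10, 100 and 1000 highest rows, 411 to 442 rows for 50% of the sum, a median CV of 8.69% to 12.9% and a lowest correlation of 0.970 to 0.974. The median CV was 8.69% without WT 3 and 9.64% without WT 1. With a library left out, both counts can only rise or stay the same. The median CV of fewer values also tends to be lower, so these CVs do not compare directly with the 12.5% over all 3 libraries.

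The count of detected rows follows its threshold, with 14107 at 0.1 FPKM, 8569 at 5 FPKM and 10319 after division by the common factor of 2. The ribosomal protein difference between WT 3 and WT 1, whose alternatives were added after seeing the data, was 0.30 with equal library sums and 0.39 with a pseudocount of 0.1. Depth is unknown, so a row at 0 may be a gene below detection or a failed estimate.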
